A study of Rattus norvegicus with 12 samples.

Results

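The interferon-stimulated genes described here are 34 rat genes named by symbol and followed through 12 bulk RNA-seq libraries of rat brain. Of the 34 symbols, 33 had a row among the 37209 gene symbols of the deposited count table, and all 33 passed the filter on low counts, so that they stand among the 17008 genes tested. Xaf1 was not analysed here. The 33 fall into 4 transcription factors, 4 nucleic acid sensors, 3 members of the OAS family, 8 virus restriction genes of the IFIT, MX and other families, 4 interferon-inducible GTPases, 7 genes of the ISG15 system and its ubiquitin and ADP-ribose enzymes, and 3 other induced genes.

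The study set 2 kinds of ischemic stroke in Sprague Dawley rats against shams. Middle cerebral artery occlusion (MCAO) closes a large artery of the cerebral hemisphere, and pontine infarction is a stroke of the brainstem. The groups were MCAO (3 libraries), the shams coded LN (3), pontine infarction (3) and the shams coded PN (3). All were labelled as brain of postnatal day 21, without a drug, transgene or mutation in the labels. Shams were matched to strokes by the first letter of the sample codes, L for MCAO and sham LN, and P for pontine infarction and sham PN. Of the MCAO libraries, 2 carry replicate numbers 1 and 2, and the third column carries a number that no sample title carries, so it is called the unnumbered MCAO library. No source used here gives the dissected region or the time after stroke, and the labels mention 3 rats per stroke without tying a library to an animal, so p-values measure the spread between these libraries, which may be partly technical.

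The libraries held 19805815 to 40400676 counts. Values are given as CPM, counts scaled to library size with edgeR's TMM factors, and a gene rose or fell where edgeR's quasi-likelihood test gave a Benjamini-Hochberg adjusted p under 0.05 over all 17008 genes, called the edgeR adjusted p below. As a check of the labelled tissue, 6 neuronal markers summed to 1577 to 1910 CPM in pontine infarction and 2569 to 2806 in sham PN, and to 2699 to 4864 CPM in MCAO and 4151 to 5785 in sham LN.

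Interferons are secreted proteins that alert cells to viruses and damage. Type I interferons bind the receptor made of Ifnar1 and Ifnar2, whose kinases Jak1 and Tyk2 phosphorylate Stat2. A complex that holds Stat2 and Irf9 binds the interferon-stimulated response element (ISRE) in promoters, whereas interferon gamma acts at the gamma-activated sequence (GAS). In the brain, microglia, astrocytes, vessels and incoming leukocytes can all carry this response, and the induced proteins block virus entry, replication and release, sense nucleic acids or end the response.

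Promoter windows of the members were read for ISRE and GAS cores. RefSeq windows of 250 bases before and 50 bases after the start, on build GRCr8, matched 26 of the 33 members. Ddx58, Ifit2, Isg15, Mx2, Rtp4, Usp18 and Zbp1 were not matched. Sequences are shown 5′ to 3′ on the strand of the gene, for the 250 bases before the start, and the counts themselves were made on another build, Rnor_6.0, per the submitters' processing notes. The 6 shown were picked because they hold a core, from the 10 called members with the largest change after MCAO. Among the rest of those 10, Oasl and Mx1 held no match, Isg15 had no window, and Irf1, with a GAS core, is not shown. Capitals mark the ISRE core, GAAANNGAAA or on the other strand TTTCNNTTTC, except in Ifi47. There they mark the GAS core, TTCNNNGAA, which reads the same on both strands.
Ifit3, chr1:241527076-241527325, plus strand: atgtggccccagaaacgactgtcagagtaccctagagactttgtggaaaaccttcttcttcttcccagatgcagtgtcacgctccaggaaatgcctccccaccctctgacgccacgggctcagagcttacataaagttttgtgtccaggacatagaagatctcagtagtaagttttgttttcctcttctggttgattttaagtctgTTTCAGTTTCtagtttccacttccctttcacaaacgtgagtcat
Gbp2, chr2:234005477-234005726, plus strand: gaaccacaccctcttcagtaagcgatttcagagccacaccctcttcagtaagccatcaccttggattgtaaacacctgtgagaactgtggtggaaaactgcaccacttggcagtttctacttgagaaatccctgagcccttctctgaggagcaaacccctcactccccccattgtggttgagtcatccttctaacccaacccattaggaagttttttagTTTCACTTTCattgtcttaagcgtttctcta
Rsad2, chr6:48788121-48788370, minus strand: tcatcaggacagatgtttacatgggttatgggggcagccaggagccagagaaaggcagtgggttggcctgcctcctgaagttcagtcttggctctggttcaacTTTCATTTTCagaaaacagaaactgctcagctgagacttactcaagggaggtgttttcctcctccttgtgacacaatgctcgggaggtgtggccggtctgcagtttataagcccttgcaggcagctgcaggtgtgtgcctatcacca
Gbp5, chr2:233910749-233910998, plus strand: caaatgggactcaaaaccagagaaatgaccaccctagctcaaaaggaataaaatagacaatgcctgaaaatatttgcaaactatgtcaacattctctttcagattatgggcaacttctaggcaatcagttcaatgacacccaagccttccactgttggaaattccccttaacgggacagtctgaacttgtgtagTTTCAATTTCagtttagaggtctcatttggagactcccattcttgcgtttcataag
Igtp, chr10:42874797-42875046, plus strand: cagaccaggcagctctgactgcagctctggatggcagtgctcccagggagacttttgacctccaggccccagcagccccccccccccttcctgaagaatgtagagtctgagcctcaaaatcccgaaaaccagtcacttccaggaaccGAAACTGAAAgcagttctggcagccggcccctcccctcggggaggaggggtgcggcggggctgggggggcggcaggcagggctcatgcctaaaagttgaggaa
Ifi47, chr10:33798494-33798743, plus strand: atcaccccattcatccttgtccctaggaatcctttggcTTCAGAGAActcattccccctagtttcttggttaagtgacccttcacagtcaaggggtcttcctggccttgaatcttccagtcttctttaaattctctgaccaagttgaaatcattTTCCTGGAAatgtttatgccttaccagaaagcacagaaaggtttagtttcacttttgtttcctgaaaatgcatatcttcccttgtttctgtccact

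The ISRE core began 44 bases before the start in Ifit3, 31 in Gbp2, 147 in Rsad2, 56 in Gbp5 and 103 in Igtp, and Ifi47 had GAS cores beginning 212 and 96 bases before it. Over all members with a window, 15 of 26 (57.7%) held an ISRE core, against 1312 of 33469 windows in the table (3.92%). The GAS core was in 8 of 26 (30.8%), against 8.87% of all windows. Some of the members held more than 1 match: Bst2, the tether of budding viruses, had overlapping ISRE cores beginning 131 and 125 bases before the start and a GAS core at 137, and Oas1a had overlapping ISRE cores at 41 and 35 and a GAS core at 199. In Igtp and Parp14 a GAS core preceded the ISRE core closely, at 114 and 103 in Igtp and at 87 and 76 in Parp14. No match was found in the windows of Cmpk2, Herc6, Mx1, Oasl, Parp9, Stat2 and Trim25, among which Oasl and Mx1 stood high in the changes below. The median log2 change after MCAO was 2.22 for the 15 members with an ISRE core, 2.65 for the 4 with a GAS core alone (Ifi47, Irf1, Irf9 and Samhd1) and 1.38 for the 7 with neither. After pontine infarction the medians were 2.09, 1.77 and 1.32 in the same order. The ranges overlapped widely: after MCAO they were 0.77 to 5.92, 0.71 to 4.29 and -0.00 to 5.37 in that order. After MCAO 10 of 15, 3 of 4 and 5 of 7 rose, where 12.5% of all tested genes did. Differences between these classes were not tested. These matches are descriptions of letters, not of bound sites.

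After MCAO the interferon-stimulated genes were higher as a group: 21 of 33 rose, none fell and 12 did not pass the test, where 12.5% of all tested genes rose and 6.07% fell. Their median log2 change was 1.77, against -0.00 over all tested genes, and 32 of 33 changes were positive. After pontine infarction 4 of 33 rose (Mx1, Ifi47, Ifit3 and Bst2), none fell and 29 did not pass, where 3.21% of all tested genes rose, 0.870% fell and 4.08% passed in either direction. The median log2 change there was 1.67, against -0.08 over all tested genes, and all 33 changes were positive. The medians were of like size although 21 and 4 members were called, and in both strokes the replicate 2 library stood far below the others. All 3 stroke libraries lay above all 3 shams for 21 of 33 members after MCAO (20.4% of all tested genes) and for 20 of 33 after pontine infarction (13.3% of all tested genes). In bulk tissue, more cells of a type and more RNA per cell cannot be told apart.

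**Figure D1:**
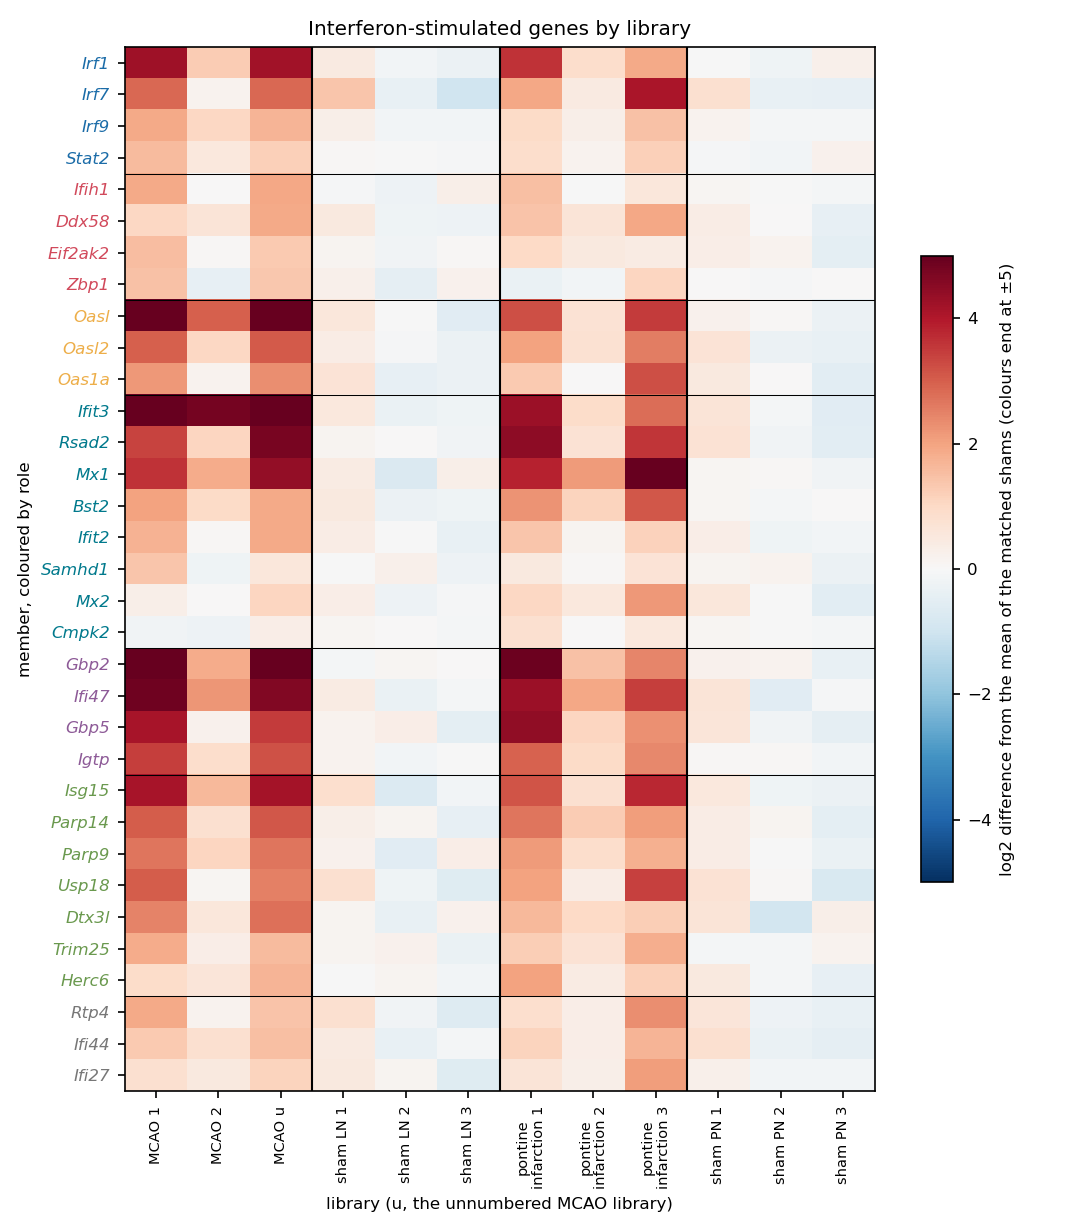
Log2 difference of each member (rows, ordered and coloured by role) in each library (columns) from the mean of the shams matched to it, where each sham is set against its own group's mean. The replicate 2 column is the palest of each stroke, with a median member difference of 0.59 in MCAO and 0.63 in pontine infarction, against 1.92 to 2.34 in the other 4 stroke libraries.

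The transcription factors of the response rose after MCAO in 3 of 4 cases, and none of the 4 passed after pontine infarction. Irf1, which interferon gamma induces, had 94.5, 11.8 and 92.0 CPM in MCAO (in the order replicate 1, replicate 2, unnumbered library, kept below), against 6.61, 4.37 and 4.02 CPM in sham LN. All 3 MCAO libraries lay above the shams, although replicate 2 was far below the others, and Irf1 rose by 3.72 ± 0.79 on the log2 scale (SE, edgeR adjusted p = 0.0103). In pontine infarction it had 68.7, 10.4 and 21.2 CPM in replicates 1, 2 and 3, against 5.5, 4.84 and 6.65 CPM in sham PN. Again the groups did not overlap, with replicate 1 highest, and the change of 2.55 ± 0.76 did not pass (edgeR adjusted p = 0.0813). Stat2 and Irf9 are parts of the ISRE-binding complex. Stat2 had 107, 51.1 and 81.7 CPM in MCAO, against 37.2, 35.1 and 34 CPM in sham LN. The shams lay within a narrow range below every MCAO library, and Stat2 rose by 1.18 ± 0.28 (edgeR adjusted p = 0.0170). In pontine infarction Stat2 had 84.8, 51.6 and 107 CPM, against 43.9, 41.4 and 53.7 CPM in sham PN, where replicate 2 overlapped the shams and the change of 0.80 ± 0.28 did not pass (edgeR adjusted p = 0.127). Irf9 rose by 1.59 ± 0.30 after MCAO (edgeR adjusted p = 0.00608) and had a change of 0.99 after pontine infarction. Irf7, the factor that amplifies type I interferon production, did not pass in either stroke, with changes of 2.02 ± 0.94 and 2.76 ± 0.96. Its levels were scattered in strokes and shams alike: 56.7, 8.69 and 56.3 CPM in MCAO against 20.0, 6.0 and 3.79 in sham LN, and 47.4, 17.2 and 210 CPM in pontine infarction against 21.8, 9.52 and 9.31 in sham PN.

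Among the nucleic acid sensors, 2 of 4 rose after MCAO and none passed after pontine infarction, and the changes were smaller than in most other roles. Ddx58 encodes RIG-I, a sensor of viral RNA ends, and rose by 1.25 ± 0.40 after MCAO (edgeR adjusted p = 0.0480). Eif2ak2 encodes PKR, the kinase that stops translation on double-stranded RNA, and rose by 1.09 ± 0.34 (edgeR adjusted p = 0.0465), with groups that overlapped because MCAO replicate 2 had 14.1 CPM against 14.9 CPM in sham LN replicate 1. Neither call held with DESeq2 size factors, without a filter on low counts, with limma voom, with the compared libraries alone, with the replicate block or when a library other than MCAO replicate 2 was left out, and the adjusted p over these reached 0.203 for Ddx58 and 0.212 for Eif2ak2. Ifih1, which encodes the long-RNA sensor MDA5, had a change of 1.51 ± 0.49 and an edgeR adjusted p of 0.0504. Zbp1, a sensor of Z-form nucleic acids that can start cell death, had a change of 0.99. After pontine infarction the changes of Ddx58, Eif2ak2, Ifih1 and Zbp1 were 1.39, 0.63, 0.83 and 0.34.

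Enzymes of the OAS family make oligoadenylates that switch on RNase L, and 2 of the 3 members here, both OAS-like genes, rose after MCAO. Oasl, whose human protein does not make oligoadenylates and enhances RIG-I signalling, had 37.5, 4.39 and 24.2 CPM in MCAO, against 0.764, 0.482 and 0.306 CPM in sham LN. Even MCAO replicate 2 lay well above every sham, and Oasl rose by 5.37 ± 0.88 (edgeR adjusted p = 0.00363). In pontine infarction it had 12.1, 2.11 and 14.7 CPM, against 1.46, 1.28 and 1.01 CPM in sham PN. The groups did not overlap there either, and the change of 2.94 ± 0.79 did not pass (edgeR adjusted p = 0.0595). Oasl2 rose by 2.60 ± 0.57 after MCAO (edgeR adjusted p = 0.0115) and had a change of 1.88 after pontine infarction. Oas1a, an oligoadenylate synthetase, had changes of 1.77 and 2.05 and passed in neither. Near-identical genes of the OAS, MX, IFIT and GBP families can share reads, and no source used here says how the authors' counting split such reads.

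The virus restriction genes held the member with the largest change after MCAO and the one with the largest change after pontine infarction. Ifit3 belongs to the IFIT proteins, which bind foreign RNA. It had 80.4, 34.2 and 107 CPM in MCAO, against 1.71, 0.889 and 0.994 CPM in sham LN, and rose by 5.92 ± 0.83 (edgeR adjusted p = 0.00225). In pontine infarction Ifit3 had 29.3, 2.78 and 10.5 CPM, against 2.32, 1.36 and 0.970 CPM in sham PN, and rose by 3.19 ± 0.75 (edgeR adjusted p = 0.0383). The MCAO libraries all lay above the pontine infarction libraries for this gene. Mx1 encodes a dynamin-like GTPase that blocks influenza and related viruses in rodents. It had 12.5, 3.60 and 21.7 CPM in MCAO, against 1.29, 0.556 and 1.19 CPM in sham LN, and rose by 3.62 ± 0.81 (edgeR adjusted p = 0.0129). In pontine infarction Mx1 had 36.6, 11.3 and 107 CPM, against 2.71, 2.61 and 2.23 CPM in sham PN, and rose by 4.36 ± 0.81 (edgeR adjusted p = 0.0167). The shams of Mx1 lay close together, and the lowest pontine infarction library was still above them. Rsad2 encodes viperin, an enzyme that makes a chain-ending nucleotide. It had 25.2, 4.98 and 65.2 CPM in MCAO, against 2.58, 2.37 and 2.07 CPM in sham LN, and rose by 3.76 ± 0.96 (edgeR adjusted p = 0.0218). In pontine infarction Rsad2 had 85.3, 6.22 and 45.1 CPM, against 6.19, 3.25 and 2.55 CPM in sham PN, where the lowest stroke library barely cleared the highest sham and the change of 3.51 ± 0.94 did not pass (edgeR adjusted p = 0.0595).

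Bst2, which holds budding virus at the cell surface, had the smallest SE of the 4 genes that rose after pontine infarction. It had 32.6, 14.6 and 58.5 CPM there, against 7.18, 6.23 and 6.83 CPM in sham PN, and rose by 2.38 ± 0.45 (edgeR adjusted p = 0.0180). After MCAO it had 16.6, 7.85 and 15.4 CPM, against 5.74, 3.34 and 3.48 CPM in sham LN, and rose by 1.66 ± 0.45 (edgeR adjusted p = 0.0270). The groups were apart in both comparisons. Ifit2, an apoptosis-linked relative of Ifit3, rose by 1.42 ± 0.45 after MCAO (edgeR adjusted p = 0.0477), with overlapping groups, and had a change of 0.96 after pontine infarction. Cmpk2, a mitochondrial nucleotide kinase, was among the members with the highest counts and did not move with the rest after MCAO: it had 29.3, 27.9 and 41.7 CPM in MCAO, against 34.9, 33.1 and 31.1 CPM in sham LN, a change of -0.00 ± 0.20. In pontine infarction Cmpk2 had 69.6, 40.8 and 57.8 CPM, against 42.5, 39.5 and 37.4 CPM in sham PN, a change of 0.49 ± 0.20 that did not pass (edgeR adjusted p = 0.188). Mx2 and Samhd1, which removes the nucleotides that viruses need, had changes of 0.52 and 0.71 after MCAO and of 1.35 and 0.44 after pontine infarction, none of which passed.

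All 4 interferon-inducible GTPases, which attack the membranes around intracellular microbes, rose after MCAO, and Ifi47 rose after pontine infarction. Gbp2 had 143, 12.3 and 113 CPM in MCAO, against 3.11, 3.56 and 3.44 CPM in sham LN, and rose by 4.73 ± 0.98 (edgeR adjusted p = 0.00936). In pontine infarction Gbp2 had 139, 12.9 and 25.2 CPM, against 5.37, 5.21 and 3.52 CPM in sham PN, and the change of 3.65 ± 0.94 did not pass (edgeR adjusted p = 0.0523). The groups did not overlap in either stroke, and replicate 1 held most of the pontine infarction signal. Ifi47 had 46.7, 7.35 and 39.9 CPM in MCAO, against 2.08, 1.22 and 1.45 CPM in sham LN, and rose by 4.29 ± 0.74 (edgeR adjusted p = 0.00444). In pontine infarction Ifi47 had 40.6, 8.00 and 22.9 CPM, against 3.22, 1.36 and 1.94 CPM in sham PN, and rose by 3.45 ± 0.71 (edgeR adjusted p = 0.0243). Both strokes kept their lowest library above the highest sham for Ifi47. Gbp5, which in mice and humans promotes inflammasome assembly, had 38.5, 2.47 and 24.5 CPM in MCAO, against 2.4, 2.67 and 1.49 CPM in sham LN. Here MCAO replicate 2 lay among the shams, and Gbp5 rose by 3.32 ± 0.96 (edgeR adjusted p = 0.0347). In pontine infarction Gbp5 had 43.4, 4.21 and 9.83 CPM, against 3.01, 1.74 and 1.40 CPM in sham PN, a change of 3.22 ± 0.96 that did not pass (edgeR adjusted p = 0.0823). Igtp had 35.3, 5.77 and 29.3 CPM in MCAO, against 3.61, 2.82 and 3.06 CPM in sham LN, and rose by 2.89 ± 0.61 (edgeR adjusted p = 0.00981). In pontine infarction Igtp had 31.5, 7.81 and 21.4 CPM, against 4.21, 4.12 and 3.67 CPM in sham PN, and narrowly missed the threshold with a change of 2.34 ± 0.59 (edgeR adjusted p = 0.0510).

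Of the 7 genes of the ISG15 system and its ubiquitin and ADP-ribose enzymes, 5 rose after MCAO and none passed after pontine infarction. Isg15, the ubiquitin-like protein that is joined to new viral and cellular proteins, had 26.1, 4.44 and 26.1 CPM in MCAO, against 2.56, 0.852 and 1.26 CPM in sham LN, and rose by 3.58 ± 0.81 (edgeR adjusted p = 0.0134). In pontine infarction Isg15 had 25.0, 4.89 and 38.5 CPM, against 4.0, 2.38 and 2.23 CPM in sham PN, and the change of 2.99 ± 0.78 did not pass (edgeR adjusted p = 0.0557). Every stroke library lay above the matched shams in both comparisons. Parp14, an ADP-ribosyltransferase, rose by 2.61 after MCAO (edgeR adjusted p = 0.00976). Parp9 and Dtx3l form an ADP-ribosyltransferase and ubiquitin ligase pair, and rose by 2.27 and 2.22 (edgeR adjusted p = 0.00796 and 0.0170). Trim25, the ubiquitin ligase that activates RIG-I, rose by 1.38 (edgeR adjusted p = 0.0262). Usp18, which removes ISG15 and blocks the type I receptor, had a change of 2.22 with an edgeR adjusted p of 0.0784, and Herc6, the ISG15 ligase of mice, a change of 1.16 with 0.0661. After pontine infarction the changes of Parp14, Parp9, Dtx3l, Trim25, Usp18 and Herc6 were 2.09, 1.67, 1.19, 1.32, 2.31 and 1.30.

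None of the 3 other induced genes passed in either stroke. Ifi27, a mitochondrial protein that many cell types induce with type I interferon, was the member with the highest mean CPM. It had 55.7, 44.2 and 69.3 CPM in MCAO, against 43.9, 34.5 and 20.7 CPM in sham LN, a change of 0.77 ± 0.41 (edgeR adjusted p = 0.204). In pontine infarction Ifi27 had 111, 87.6 and 298 CPM, against 85.4, 64.2 and 64.8 CPM in sham PN, a change of 1.21 ± 0.41 (edgeR adjusted p = 0.122). The groups were apart in both comparisons, but barely so in both, and replicate 3 alone was far above the rest in pontine infarction. Ifi44 had changes of 1.21 and 1.05, and Rtp4, a chaperone of membrane receptors, changes of 1.22 and 1.37.

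**Figure D2:**
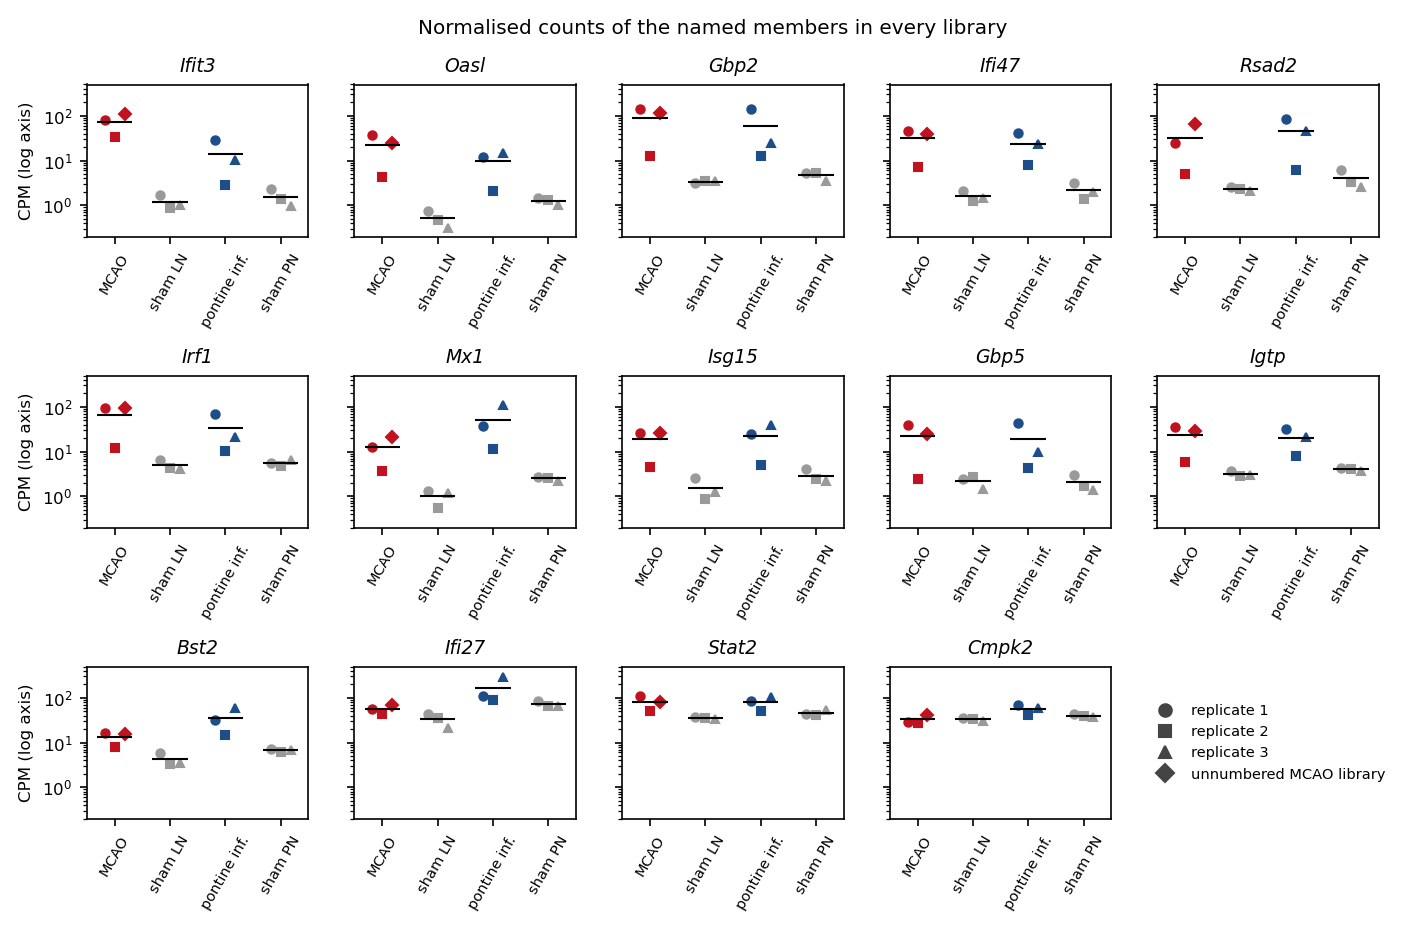
CPM (log axis) of the 14 members given in every library, with symbols for replicates and a line at each group's mean, for MCAO, sham LN, pontine infarction and sham PN. The square, replicate 2, is the lowest stroke point in all 14 MCAO groups and in all 14 pontine infarction groups, and Cmpk2 is the panel in which MCAO and sham LN lie level.

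The call counts depended on single libraries. After MCAO, 13 members were called without MCAO replicate 1, 27 without replicate 2 and 12 without the unnumbered library. Without sham LN replicates 1, 2 and 3 the numbers were 12, 10 and 8. Of all tested genes, 8.18%, 35.2% and 8.68% passed in either direction without the MCAO libraries in that order. The shares were 6.56%, 8.92% and 7.26% without sham LN replicates 1, 2 and 3, against 18.6% with every library. Gbp2, Ifi47, Ifit3, Igtp, Irf9, Oasl, Parp14 and Parp9 kept their call under each of the 6 omissions. Of these 8, Gbp2 and Igtp reached an edgeR adjusted p of 0.0491 and 0.0462. With limma voom they were not called (limma adjusted p = 0.0569 and 0.0570). For the other members that rose, the edgeR adjusted p over these omissions was 0.00064 to 0.0504 for Irf1, 0.00235 to 0.0539 for Mx1, 0.00174 to 0.0591 for Isg15, 0.00317 to 0.0893 for Rsad2, 0.00269 to 0.0922 for Stat2, 0.00955 to 0.102 for Bst2 and 0.00401 to 0.120 for Gbp5. It reached 0.0544 for Oasl2, 0.0669 for Dtx3l, 0.125 for Trim25, 0.171 for Ifit2, 0.203 for Ddx58 and 0.212 for Eif2ak2. Stat2, Bst2, Gbp5, Dtx3l, Trim25, Ifit2, Ddx58 and Eif2ak2 were called in 1 of the 6 omissions, that of MCAO replicate 2. Rsad2 was called in 2 of the 6, Mx1 and Isg15 in 4, and Irf1 and Oasl2 in 5. After pontine infarction, 2 members were called without replicate 1, 21 without replicate 2 and 2 without replicate 3. None was called without sham PN replicate 1, 2 or 3. Of all tested genes, 2.46%, 5.60% and 1.78% passed without pontine infarction replicates 1, 2 and 3, against 4.08% with every library. Without sham PN replicates 1, 2 and 3 the shares were 1.04%, 0.301% and 0.0347%, so calls over all genes fell there too. None of the 4 genes that rose after pontine infarction was called under every left-out library. Their edgeR adjusted p reached 0.109 for Mx1, 0.130 for Ifi47, 0.179 for Ifit3 and 0.106 for Bst2. Their log2 changes stayed between 1.80 and 4.84. With 1 library left out, the fit still estimated the spread from all groups.

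Library differences were shared by nearly all members. MCAO replicate 2 was the lowest MCAO library for 33 of 33 members, and pontine infarction replicate 2 the lowest of its group for 31 of 33. Members more than 2-fold above the mean of their shams numbered 29, 11 and 31 in the MCAO libraries. In pontine infarction the numbers were 26, 7 and 29 in replicates 1, 2 and 3. The highest stroke library exceeded the lowest by a median of 3.73-fold over members in MCAO and 3.41-fold in pontine infarction, against 1.65-fold in sham LN and 1.75-fold in sham PN.

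Markers of incoming and activated myeloid cells were also higher in the stroke libraries. Over all tested genes, 12.5% rose and 6.07% fell after MCAO, and 3.21% rose and 0.870% fell after pontine infarction. The 6 markers of macrophages and activated microglia all rose in both strokes, and summed to 1373, 271 and 852 CPM in MCAO, against 8.76 to 12.1 CPM in sham LN. In pontine infarction they summed to 667, 429 and 1880 CPM, against 10.1 to 14.1 CPM in sham PN. Of 8 tested markers of neutrophils and monocytes, 8 rose after MCAO and 5 after pontine infarction. Their sums, over the 10 of 11 listed genes with a row, were 2412, 248 and 1113 CPM in MCAO, against 39.7 to 47.2 CPM in sham LN, and 1107, 236 and 986 CPM in pontine infarction, against 48.6 to 49.1 CPM in sham PN. Ly6c, Fpr1 and Fpr2 were at 0 in sham LN and Fpr1 in sham PN, and no marker of either list was at 0 in a whole stroke group. Replicate 2 had the lowest sum of both lists in both strokes, as it had the lowest members. The other libraries did not all follow: MCAO replicate 1 had the higher sum of both lists, and the unnumbered library the higher median member difference (2.34 against 2.17). In pontine infarction, replicate 3 had the higher macrophage sum and median member difference (2.07 against 1.92), and replicate 1 the higher neutrophil sum. The 8 resting microglia markers summed to 278 to 392 CPM in MCAO, against 334 to 394 CPM in sham LN, and to 345 to 1152 CPM in pontine infarction, against 338 to 376 CPM in sham PN. Of the 7 tested, Siglech rose and Tmem119 fell after MCAO, and Csf1r rose after pontine infarction. Markers of T and NK cells summed to 13.5 to 16.3 CPM in MCAO, against 18.4 to 25.5 CPM in sham LN, and to 25.2 to 106 CPM in pontine infarction, against 11.4 to 14.2 CPM in sham PN. Of the 5 tested, Cd2 and Cd8a rose after MCAO, while Cd4, which made up most of the sum in sham LN (19.9 CPM, against 8.04 in MCAO), fell, and Cd8a rose after pontine infarction. Endothelial markers summed to 243 to 250 CPM in MCAO, against 234 to 287 CPM in sham LN, and astrocyte markers to 4287 to 5302 CPM, against 2144 to 2335 CPM. In pontine infarction endothelial markers summed to 242 to 312 CPM, against 272 to 337 CPM in sham PN, and astrocyte markers to 5637 to 8164 CPM, against 3222 to 3434 CPM. The higher astrocyte sums came from Gfap, which averaged 3594 CPM in MCAO, against 434 CPM in sham LN, and 5393 CPM in pontine infarction, against 1520 CPM in sham PN. The 5 other astrocyte markers had negative changes in both strokes, and 3 of them (Slc1a3, Aldh1l1 and Gja1) fell after MCAO. Red cell markers summed to 57.9 to 90.8 CPM in MCAO, against 11.3 to 97.3 CPM in sham LN, and to 122, 26.3 and 127 CPM in pontine infarction, against 20.9 to 24.5 CPM in sham PN, where replicate 2 was again the lowest stroke library and neither of the 2 tested genes passed. Plasmacytoid dendritic cell markers summed to 130 to 176 CPM in MCAO, against 111 to 144 CPM in sham LN, and to 113 to 218 CPM in pontine infarction, against 80.9 to 95.8 CPM in sham PN, and of the 5 tested Irf8 and Siglech rose after MCAO and Irf8 after pontine infarction. Siglech, with 93 counts over the 12 libraries, stands on this list and on that of resting microglia. Irf8 stands on this list and on that of upstream sensing below, so its rise is counted in both. Tcf4 and Irf8 had the most counts of the plasmacytoid list, 22897 and 11645 over the 12 libraries, against 5053 for Il3ra. The part of any of these cell types in the member changes was not tested.

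Pontine infarction replicates 3 and 1 had like medians over members but different members on top. Of 33 members, 18 were higher in replicate 3 and 15 in replicate 1. More than 2-fold higher in replicate 3 were Irf7 (210 against 47.4 CPM), Oas1a (37.4 against 9.86), Mx1 (107 against 36.6), Rtp4 (18.8 against 6.70), Ifi27 (298 against 111), Zbp1 (14.6 against 5.58), Usp18 (39.0 against 14.9) and Mx2 (96.7 against 44.1). Gbp2 was 5.53-fold, Gbp5 4.42-fold, Irf1 3.24-fold and Ifit3 2.78-fold higher in replicate 1. By role, 4 of 4 GTPases were higher in replicate 1. In replicate 3, 3 of 3 OAS genes and 3 of 3 other induced genes were higher. Among these the smallest differences were 1.22-fold for Oasl, 1.45-fold for Oasl2 and 1.48-fold for Igtp. The remaining roles were split. Higher in replicate 3 were 4 of 8 virus restriction genes, 3 of 7 of the ISG15 system, 2 of 4 sensors and 3 of 4 transcription factors. Between the unnumbered MCAO library and MCAO replicate 1, in contrast, Rsad2 was the single member that differed more than 2-fold (2.58-fold higher in the unnumbered library). Over all tested genes these MCAO libraries were also more alike (Pearson r of log2 values 0.966) than pontine infarction replicates 1 and 3 (0.941). The share of all genes beyond 2-fold was not counted, and whether the contrast is particular to the members was not tested. Replicate 3 also had the higher sum of the macrophage and activated microglia markers (1880 against 667 CPM), of the resting microglia markers (1152 against 345 CPM) and of the T and NK cell markers (106 against 26.3 CPM), and the lower sum of the neutrophil and monocyte markers (986 against 1107 CPM). These sums lean on few genes. On the T and NK cell list, Cd4 and Cd8a had 5270 and 2517 counts over the 12 libraries, and no other gene exceeded 227. Gpnmb had 94742 counts, against 19890 for the next macrophage and activated microglia marker. Lyz2 had 89858, against 18812 for the next neutrophil and monocyte marker. The part of these cells in the member differences was not tested. Each comparison here is between single libraries, so the differences have no replicate check.

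**Figure D3:**
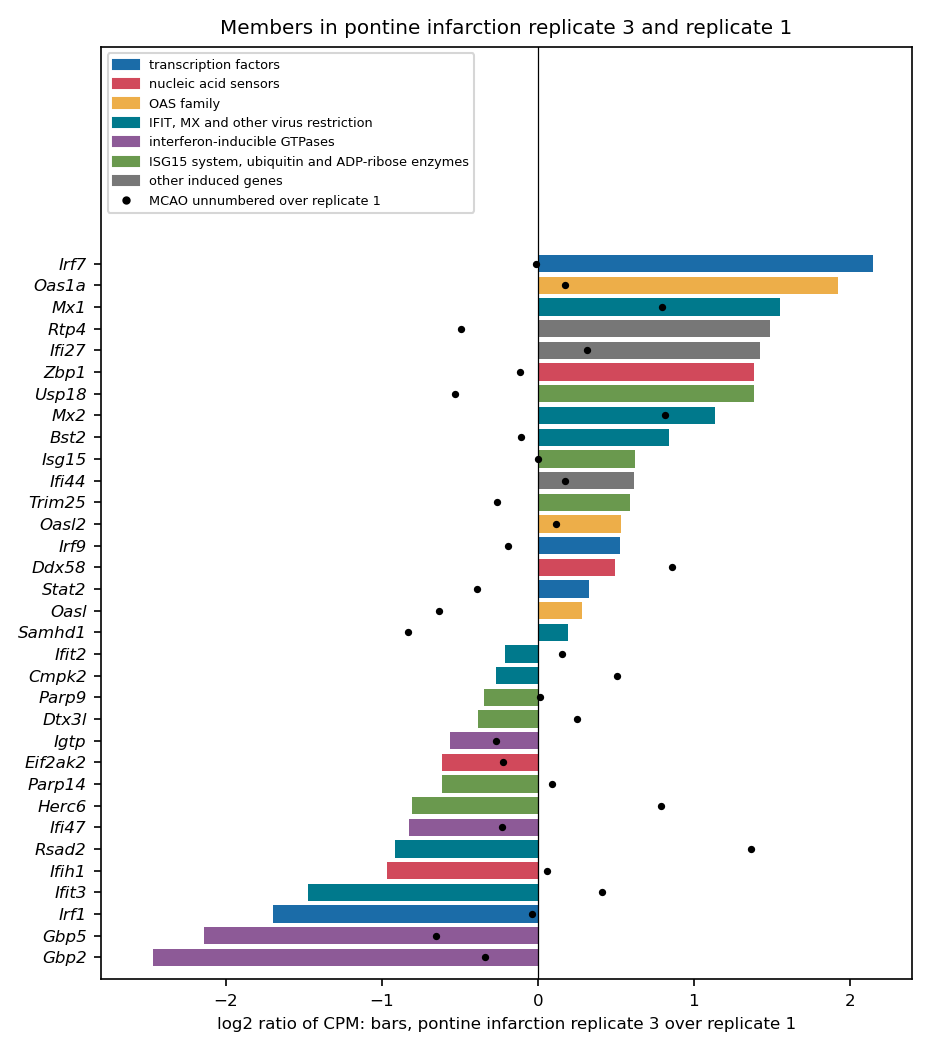
Log2 ratio of CPM for each of 33 members: bars, pontine infarction replicate 3 over replicate 1, coloured by role; black points, the unnumbered MCAO library over MCAO replicate 1. The bars run from -2.47 for Gbp2 to 2.15 for Irf7, whereas the points lie between -0.83 and 1.37.

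The members ranked in much the same order in both strokes. The comparisons share no library, and across the 33 members their log2 changes had a Pearson r of 0.842 and a Spearman rho of 0.864, a description over genes that are not independent. All 4 members that rose after pontine infarction also rose after MCAO, 17 rose after MCAO and did not pass after pontine infarction, and 12 passed in neither, while 2.29% of all tested genes rose in both. The change was larger after MCAO for 22 members and larger after pontine infarction for 11. When the difference between the responses was itself tested, no member and no gene passed edgeR's test. At an unadjusted p under 0.05 the difference held 2 members and 1826 of all 17008 genes, and DESeq2 called 238 genes and limma 0, with no member among either. Those 2 members were Ifit3, with a difference of 2.73 ± 1.02 (edgeR adjusted p = 0.388), and Oasl, with 2.43 ± 1.10 (edgeR adjusted p = 0.459). At the other end, Mx2 had -0.84 ± 0.60, Irf7 -0.74 ± 1.29, Mx1 -0.74 ± 1.06 and Bst2 -0.72 ± 0.62. A call in 1 stroke alone is therefore not shown to be a difference between strokes.

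**Figure D4:**
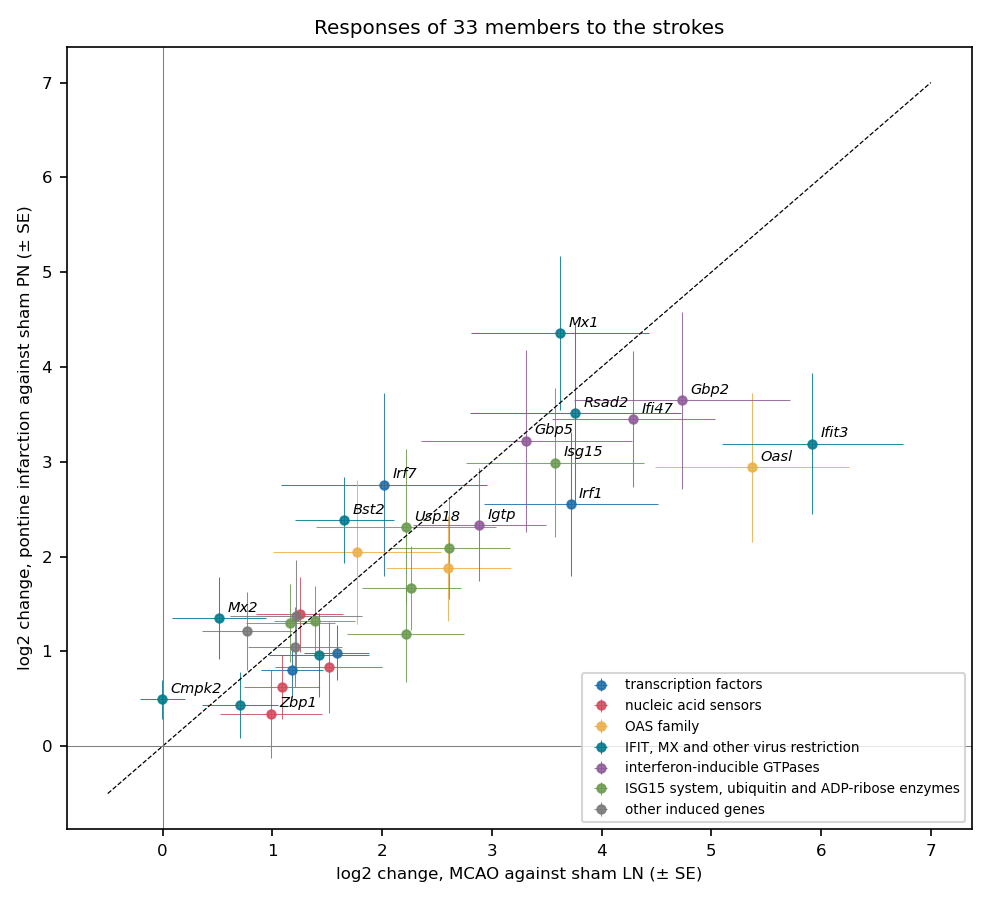
Log2 change of each of 33 members after MCAO against sham LN (x axis) and after pontine infarction against sham PN (y axis), with SE bars and colours by role; the dashed line marks equal changes. Ifit3 (5.92 and 3.19) and Oasl (5.37 and 2.94) lie farthest below the line, and Cmpk2 lies at -0.00 and 0.49.

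Between the shams, no member passed, against 21.3% of all tested genes, and 29 of 33 members had a lower mean in sham LN than in sham PN. The median log2 difference of sham LN from sham PN was -0.46, against -0.11 over all tested genes. For 12 members every sham LN library lay below every sham PN library (29.2% of all tested genes), and for none was the order the reverse (21.7% of all tested genes). The 3 OAS genes were all among those 12. Oasl had a mean of 0.517 ± 0.231 CPM in sham LN and 1.25 ± 0.23 CPM in sham PN (SD, n = 3 each), and Oas1a 1.74 ± 0.82 and 4.13 ± 1.41 CPM. Ifi27, at 33.1 ± 11.7 CPM in sham LN and 71.4 ± 12.1 CPM in sham PN, was the single member with an unadjusted p under 0.05. Its difference was -1.11 ± 0.42 (edgeR adjusted p = 0.0788). Of all 17008 tested genes, 5780 had an unadjusted p under 0.05 between the shams, so the members differed less often than genes at large. Of the libraries' origin the labels say only brain, so region and animal cannot be told apart here.

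Genes that make and receive interferon were examined next. Interferon transcripts were at the limit of detection: 11 of 13 listed ligands had a row, none passed the filter, and 5 (Ifna2, Ifna5, Ifna11, Ifna16l1 and Ifnl3) had 0 counts in all 12 libraries, which allows up to 0.0743 to 0.152 CPM per library by a limit of 3 counts, for counting error only. Ifnb1, interferon beta, had 1 count in all, in an MCAO library. Ifng, interferon gamma, was counted 14 times in MCAO and 0 times in sham LN, and 0 times in pontine infarction and 1 time in sham PN. The other ligands did not exceed 17 counts over the 12 libraries.

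Receptors and kinases rose after MCAO in 6 of 9 cases, where 12.5% of all tested genes rose. After pontine infarction 1 of 9, Il10rb, rose, where 3.21% of all tested genes did. Il10rb, the receptor chain shared by lambda interferons and interleukin 10, had 23.9, 8.69 and 17.9 CPM in MCAO, against 5.82, 4.11 and 4.32 CPM in sham LN, and rose by 1.82 ± 0.36 (edgeR adjusted p = 0.00793). In pontine infarction it had 14.2, 10.3 and 21.7 CPM, against 4.69, 5.21 and 5.32 CPM in sham PN, and rose by 1.60 ± 0.36 (edgeR adjusted p = 0.0331). Of the type I receptor chains, Ifnar2 rose by 1.41 ± 0.24 after MCAO (edgeR adjusted p = 0.00454), whereas Ifnar1 had a change of 0.43 ± 0.19 that did not pass (edgeR adjusted p = 0.129), and the difference between the chains was not tested. Ifnlr1, the lambda interferon receptor, rose by 1.44 ± 0.29 after MCAO (edgeR adjusted p = 0.00849) and had a change of 0.00 ± 0.29 after pontine infarction. Jak1 rose by 0.89 ± 0.19 after MCAO (edgeR adjusted p = 0.0108), and Tyk2 had a change of 0.10 ± 0.24. Jak2, a kinase of the interferon gamma receptor, had 98.6, 50.2 and 140 CPM in MCAO, against 35.1, 31.4 and 46.7 CPM in sham LN, and rose by 1.35 ± 0.36 (edgeR adjusted p = 0.0253). Its change after pontine infarction was 0.88 ± 0.36 (edgeR adjusted p = 0.179). After pontine infarction the changes of Ifnar1, Ifnar2, Jak1 and Tyk2 were 0.18, 0.43, 0.24 and 0.27, none of which passed.

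Of 13 tested genes of upstream sensing, 5 rose after MCAO and 5 after pontine infarction, against 12.5% and 3.21% of all tested genes. Mb21d1, the older symbol of the DNA sensor cGAS, rose by 2.99 ± 0.92 after MCAO at levels near 1 CPM (edgeR adjusted p = 0.0438). Ticam1, the adaptor TRIF, rose by 2.88 ± 0.52, Unc93b1, which carries nucleic acid receptors to endosomes, by 2.12 ± 0.59, and Dhx58, the RIG-I relative LGP2, by 2.05 ± 0.51 (edgeR adjusted p = 0.00565, 0.0298 and 0.0193). After pontine infarction Irf8, a transcription factor of myeloid cells, had 52.2, 43.5 and 154 CPM, against 9.5, 7.14 and 8.48 CPM in sham PN, and rose by 3.31 ± 0.46 (edgeR adjusted p = 0.00652). Unc93b1 rose there by 2.49 ± 0.59 (edgeR adjusted p = 0.0400).

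Among 9 inhibitors, 4 rose after MCAO and 2 after pontine infarction, against 12.5% and 3.21% of all tested genes. Socs3, which blocks JAK kinases after cytokine signals, had 581, 114 and 494 CPM in MCAO, against 2.03, 1.41 and 1.64 CPM in sham LN, and rose by 7.86 ± 0.99 (edgeR adjusted p = 0.00154). In pontine infarction Socs3 had 200, 25.6 and 31.4 CPM, against 2.92, 1.96 and 1.40 CPM in sham PN, and rose by 5.35 ± 0.90 (edgeR adjusted p = 0.0119). Socs3 exceeded every member in size of change in both strokes. Socs1, its relative that curbs interferon receptors, rose by 3.42 ± 0.77 after MCAO (edgeR adjusted p = 0.0129) and had a change of 1.15 ± 0.72 after pontine infarction. The phosphatases Ptpn6 and Ptpn2 rose by 2.32 and 1.22 after MCAO, and Ptpn6 by 2.82 after pontine infarction (edgeR adjusted p = 0.00757, 0.0230 and 0.0113).

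A list of 34 tested interferon-induced genes outside the members had 18 that rose after MCAO and 7 after pontine infarction. The shares of all tested genes that rose were 12.5% and 3.21%. The list had median log2 changes of 1.65 and 1.78. Cxcl10 and Cxcl11, which draw T cells, rose by 7.11 ± 1.79 and 5.58 ± 1.65 after MCAO (edgeR adjusted p = 0.0206 and 0.0376). Oas1k rose by 6.41 ± 1.53 and Ifitm1, which bars virus entry, by 5.43 ± 0.89 (edgeR adjusted p = 0.0166 and 0.00363). Both chemokines were uneven over libraries: Cxcl10 had 15.3, 0.839 and 56.1 CPM in MCAO, against 0.316, 0.0741 and 0.0765 CPM in sham LN, and 101, 2.01 and 10.5 CPM in pontine infarction, against 1.07, 0.756 and 0.287 CPM in sham PN. After pontine infarction Ifitm1 rose by 4.0 ± 0.82 and Epsti1 by 2.61 ± 0.47 (edgeR adjusted p = 0.0230 and 0.0152). ISRE cores were in 19 of the 29 genes of this list that had a window (65.5%) and GAS cores in 8 (27.6%), counting a gene if any of its windows held the core, whereas the shares of all windows above count each window.

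These pathway calls also leaned on single libraries, as did the calls over all tested genes given above. With a library left out, the genes that rose after MCAO were 4 to 6 of the receptors and kinases, 1 to 6 of upstream sensing, 2 to 6 of the inhibitors and 5 to 24 of the other induced genes. The receptors and kinases had 4 calls without MCAO replicate 1 or sham LN replicate 1, and the inhibitors 2 without sham LN replicate 2 or 3. Upstream sensing had 1 call without MCAO replicate 1, the unnumbered library or sham LN replicate 2 or 3, and 3 without sham LN replicate 1. The other induced genes had 6 calls without MCAO replicate 1, 8 without the unnumbered library, and 7, 7 and 5 without sham LN replicates 1, 2 and 3. Il10rb, Ifnar2, Ifnlr1, Ticam1, Socs3, Ptpn6 and Ifitm1 kept their MCAO call under each omission. The edgeR adjusted p reached 0.0566 for Jak1, 0.0583 for Socs1, 0.0678 for Oas1k, 0.0783 for Dhx58, 0.0786 for Cxcl10, 0.104 for Ptpn2, 0.109 for Jak2, 0.117 for Cxcl11, 0.137 for Mb21d1 and 0.144 for Unc93b1. Jak2, Ptpn2, Cxcl11 and Unc93b1 kept their call in 1 of 6 omissions, that of MCAO replicate 2. Oas1k, Dhx58, Cxcl10 and Mb21d1 kept theirs in 2 of 6, Socs1 in 4 and Jak1 in 5. After pontine infarction the lists had 0 to 2, 0 to 6, 0 to 2 and 0 to 21 calls in the same order. The 21 other induced genes and the 2 receptors or kinases came without replicate 2, no list had a call without sham PN replicate 2 or 3, and without replicate 1, replicate 3 or sham PN replicate 1 the receptors had 0, 0 and 0 calls, upstream sensing 5, 1 and 1, the inhibitors 2, 2 and 1 and the other induced genes 3, 1 and 1. Over the omissions the edgeR adjusted p reached 0.0646 for Irf8, 0.0768 for Ptpn6, 0.0931 for Socs3, 0.102 for Epsti1, 0.124 for Ifitm1, 0.136 for Il10rb and 0.161 for Unc93b1. The method of testing also moved the counts. Of the other induced genes, limma voom called 7 after MCAO and 1 after pontine infarction, DESeq2 22 and 21 higher, the compared libraries alone 12 and 12 (of 30 and 31 tested), and 14 rose after pontine infarction without a filter on low counts. Of upstream sensing, limma voom called 3 and 2, DESeq2 6 and 7, and the compared libraries alone 3 and 4. Of the inhibitors limma voom called 3 and 1, and of the receptors and kinases 6 and 0. With the replicate block, which leaves out the unnumbered MCAO library, 10 other induced genes, 2 of upstream sensing and 2 inhibitors were called after MCAO, against 8, 1 and 3 of the same libraries unblocked, and 8 other induced genes and 3 of upstream sensing after pontine infarction, against 5 and 3 unblocked. Receptors and kinases had 2 calls after pontine infarction with DESeq2, without a filter and with the compared libraries alone.

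**Figure D5:**
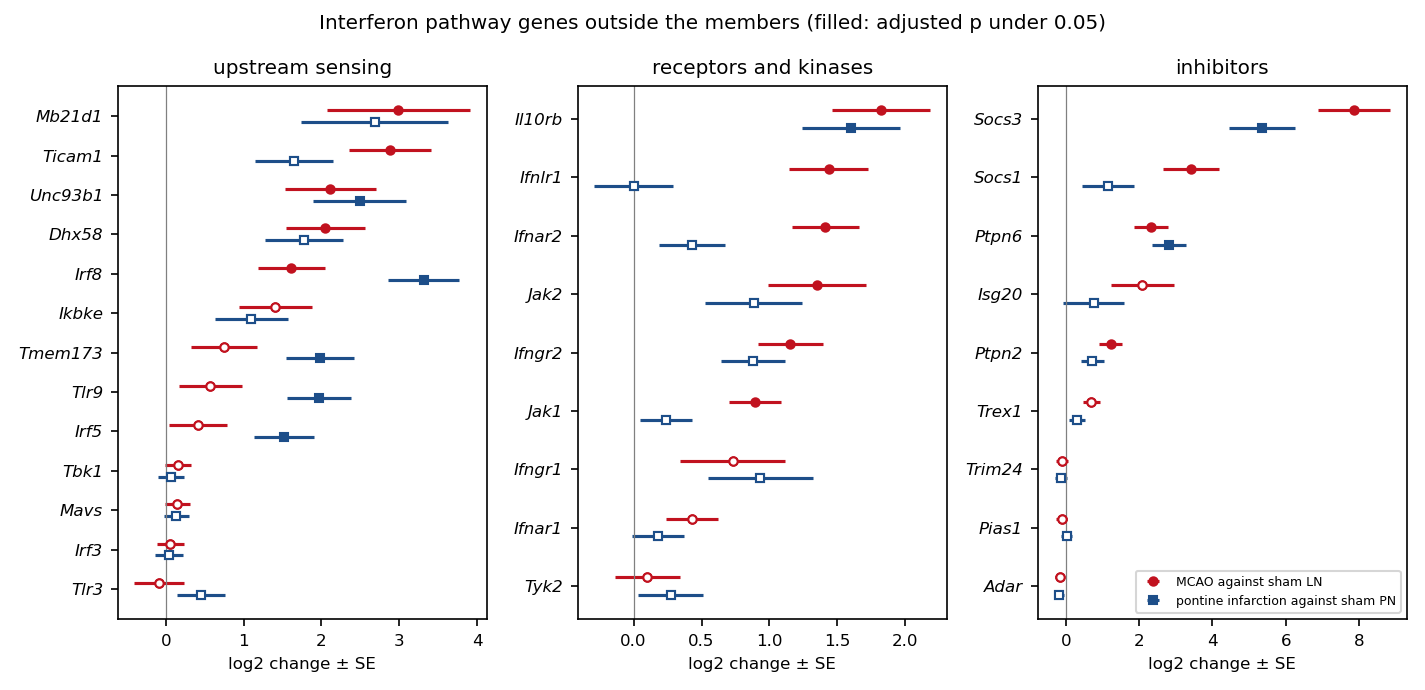
Log2 change ± SE of pathway genes outside the members, for upstream sensing, receptors with kinases, and inhibitors, with MCAO against sham LN as red circles and pontine infarction against sham PN as blue squares, filled where the adjusted p was under 0.05. Socs3, at 7.86 and 5.35, lies far to the right of the other genes, and the receptor panel holds 6 filled circles and 1 filled square.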

How the data were processed

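RNA-seq of rat brain was analysed from the authors' deposited table of raw counts per gene symbol. Per the submitters' processing notes, HISAT2 and build Rnor_6.0 were used; no source used here gives the counter, annotation or strandedness, so antisense reads cannot be told apart. All 12 columns were used, 1 of them assigned to the MCAO group only. Genes passed edgeR 4.0.16 filterByExpr (minimum count 10, minimum total 15) in R 4.3.3; TMM scaling, 4 group means and quasi-likelihood tests followed, with Benjamini-Hochberg adjustment over 17008 genes (threshold 0.05). The SE was taken as the absolute log2 change divided by the square root of F; log2 values by library used a prior count of 2. DESeq2 1.42.0, limma voom 3.58.1, other filters and scaling, compared libraries alone, a replicate block and left-out libraries were alternatives. The fit was tested on simulated data. The members and lists were chosen with earlier results of these data known. Values in every library are given for the 10 called members with the largest change after MCAO, those called after pontine infarction and the 3 with the highest mean CPM (other members' single-library values were chosen after they were seen); outside the members, the called genes with the largest changes per list, at most 4 after MCAO and 2 after pontine infarction, and Ifnb1, Ifng, Ifnar1, Ifnar2, Jak1 and Tyk2, less an item not reported here. No 2 libraries held identical counts.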

Additional observations from a re-analysis of the deposited data

How the results depend on the processing

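After MCAO 21 members were called; limma voom called 10, the replicate block (without the unnumbered library) 15 against 12 of the same libraries unblocked, and leaving out single libraries 8 to 27. After pontine infarction 4 were called; without a filter on low counts there were 17, with DESeq2 23, with limma voom 0, with the compared libraries alone 9, with the replicate block 11 against 4 of the same libraries unblocked, and with single libraries left out 0 to 21. The replicate numbers are not shown to pair the libraries. Deviations of same-numbered libraries correlated at 0.104 and 0.0426 for MCAO and sham LN, and at 0.0483, 0.150 and 0.154 for pontine infarction and sham PN. For sham LN and sham PN they correlated at 0.153, 0.0804 and 0.0435. In these last 2 pairs of groups each library correlated best with its own number. MCAO replicates 1 and 2 also correlated best with the sham LN library of their own number. Sham LN replicate 2, however, correlated more with the unnumbered MCAO library (0.0905). These matches are a hint from the data and not the design. Between the shams, DESeq2 called 1 member and the compared libraries alone 4, each lower in sham LN, against 0. The difference between strokes gave no member under any alternative run; the compared libraries alone were not run for it. Over all tested genes, calls after MCAO were 3163, with 1354 from the compared libraries alone, 1389 with the block and 1136 to 6170 with a library left out. After pontine infarction they were 694, with 1738 by DESeq2, 315 by limma voom and 6 to 965 with a library left out. Between shams they were 3625, with 6365 from the compared libraries alone and 2334 to 2662 with a library left out. For the difference they were 0, with 1 without a filter, 238 by DESeq2 and 970 without MCAO replicate 2. Signs turned for 2 members, neither of them called. Cmpk2 after MCAO (-0.00) had 0.000104 with a filter of 1 CPM, 0.00444 with the compared libraries alone and -0.21 to 0.04 with a library left out (0.0121 when MCAO replicate 2 was omitted, 0.0368 when sham LN replicate 1 was). Zbp1 after pontine infarction (0.34) had -0.22 without replicate 3, and up to 0.58 without another. The cause of these shifts was not tested. Each group had 3 libraries, and every member had at least 1451 counts over the 12.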

Other observations

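Members that are direct neighbours in the order of protein-coding genes on GRCr8 did not all change alike. Rsad2 and Cmpk2, neighbours in this order on chromosome 6, had log2 changes of 3.76 and -0.00 after MCAO. After pontine infarction they had 3.51 and 0.49. Ifit3 and Ifit2 on chromosome 1 had 5.92 and 1.42 after MCAO and 3.19 and 0.96 after pontine infarction. Oasl and Oasl2 on chromosome 12 had 5.37 and 2.60 after MCAO and 2.94 and 1.88 after pontine infarction. Parp9, Dtx3l and Parp14 on chromosome 11 had 2.27, 2.22 and 2.61 after MCAO and 1.67, 1.19 and 2.09 after pontine infarction. Differences between neighbours were not tested.

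The shams also varied together. Replicate 1 was the highest sham LN library for 25 of 33 members and the highest sham PN library for 28 of 33. The median member lay 0.33 on the log2 scale above the group mean in sham LN replicate 1 and 0.37 above it in sham PN replicate 1, while the median over all genes was 0.02 and -0.01. Irf7 had 20.0 CPM in sham LN replicate 1, against 6.0 and 3.79 CPM in replicates 2 and 3.

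Choroid plexus markers, led by Ttr, summed to 1087 CPM in MCAO replicate 1, whereas the lowest MCAO library had 2.37 CPM and sham LN had 1.45 to 4.95 CPM. The part of this tissue in the members' values of that library was not tested.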
